A study of Homo sapiens with 8 samples.

Results

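The phagocyte NADPH oxidase was described through 5 of its subunit genes, CYBA, CYBB, NCF1, NCF4 and RAC2, among the 78932 genes of the count table. The rows were found by matching Ensembl gene IDs to symbols, and all 5 genes passed the filter on low counts. The set was chosen by measured values, namely the heavy minus light difference of CYBA, which lay strongly in the heavy pools of the sucrose gradients. Heavy against light differences of these 5 genes are therefore given as a description, with no test.

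The phagocyte oxidase moves electrons from NADPH across a membrane onto oxygen, and the superoxide it makes is used by neutrophils and macrophages to kill microbes. CYBB encodes gp91phox, the catalytic flavocytochrome, and CYBA encodes p22phox, its membrane partner, which stabilises it and docks the cytosolic subunits. NCF1 encodes p47phox, the organiser that binds p22phox once phosphorylated, NCF4 encodes p40phox, which binds a phosphoinositide of the phagosome membrane, and RAC2 encodes the blood cell GTPase that completes the active complex. In polysome profiling a lysate is spun through sucrose so that an mRNA carrying many ribosomes sediments further than one carrying few or none.

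Molm13 and U937 are established human cell lines, both labelled as acute myeloid leukaemia. Cells of each line were a control or were labelled OGFOD1 OE, meaning overexpression from a vector delivered by lentivirus. The library names hold Scr for the controls and OE for the others. OGFOD1 encodes a prolyl hydroxylase of the ribosomal protein RPS23. All cells were exposed to cycloheximide in cold buffer before lysis, and each line and genotype gave a light pool (free ribonucleoproteins, monosomes and disomes) and a heavy pool (fractions with 3 or more ribosomes). This made 8 libraries, with 1 library per line, genotype and pool, so n = 2 per genotype and pool, with the line label as the replicate. The labels name neither the promoter of the vector, nor a clone, nor separate cultures, so p-values measure only the spread between these libraries. The light and heavy pool of a line and genotype are described below as 1 gradient, of which there were 4. The main tests hold no term for the gradient and count its pools as independent libraries. Genotype p-values over both pools therefore take both pools of a gradient as replicates. With each gradient summed over its pools, at 1 residual degree of freedom, 0 genes were called by genotype, beside 1061 in the main fit.

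The libraries held between 25741930 and 89373133 counts. OGFOD1 RNA went against its label: it stood at 10.1 to 25.3 CPM (the count scaled to library size, with TMM factors) under the label OE and at 33.0 to 60.2 CPM in the controls. Fitted over both pools, it differed by -1.596 in log2 units (SE 0.30, adjusted p = 0.0178 by edgeR's quasi-likelihood test), so directions are given for libraries "labelled OE" throughout. The library labelled Molm13 control light stood apart from the other light pools. Mitochondrial genes took 2.49% of its counts, against 19.8% to 23.3% in the other light pools and 0.36% to 0.941% in the heavy pools, and its mean correlation was higher with the heavy libraries (0.965) than with the light ones (0.94). Pool and genotype results of the 5 subunits are therefore also given without it, by gradient or by matched pair. The line labels separated few genes: 2 of 24289 tested genes differed by more than 4-fold in the same direction in all 4 matched pairs. The labels are used as given, and whether they mark different cells was not tested. Of 10 myeloid markers, 8 reached 1 CPM in at least 1 library, while ANPEP and CD14 stayed under 1 CPM in all of them. The T and NK cell markers CD3E, CD2, CD8A and KLRD1, the B cell markers MS4A1, PAX5 and CD22, and all 6 erythroid and megakaryocytic markers also stayed under 1 CPM.

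NCF1 has 2 near-identical copies on the same chromosome, NCF1B and NCF1C, annotated as pseudogenes, and its counts have to be read beside theirs. The best known difference between them is a TG repeat at the junction of exon 1 and exon 2. It is shown here because it sets how long the reading frame is, with the repeat in capitals, from the GENCODE 29 transcripts on GRCh38.
NCF1-201: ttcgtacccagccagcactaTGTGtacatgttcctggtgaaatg
NCF1B-201: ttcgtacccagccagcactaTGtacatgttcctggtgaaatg
NCF1C-201: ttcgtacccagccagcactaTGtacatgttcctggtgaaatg
NCF1-201 holds 4 bases of the repeat, with the first in exon 1 and the last in exon 2 (chromosome 7, 74774103 and 74777269, + strand), and its frame runs for 390 codons. NCF1B-201 (73220717 and 73223878, + strand) and NCF1C-201 (75168710 and 75171872, - strand) hold 2 bases, and the frame from the same start runs for 50 codons. Another transcript model, NCF1B-203, is annotated with 4 bases there. Of all 50-base windows of NCF1-201, 84.5% were also found in transcripts of the copies, and of all 150-base windows 45.4% were. How the authors' counting divided such reads is not given in the sources used here, so levels of NCF1, NCF1B and NCF1C are uncertain.

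The subunits were present at very unequal levels. Over the 8 libraries CYBA had the highest median per exonic length, 386 RPKM (CPM divided by the exonic length in kilobases), with a range of 30.9 to 908 RPKM. RAC2 followed with a median of 128 RPKM, its widely expressed paralogue RAC1 with 126 RPKM, NCF4 with 84.5 RPKM and NCF1 with 26.8 RPKM. CYBB had a median of 0.501 RPKM. The ranges of CYBA, RAC2, RAC1 and NCF4 overlapped, so their order is not separated by the spread between libraries. NCF1, at 2.97 to 79.0 RPKM, overlapped each of them too, but ranked 5 among these and CYBB in 8 of 8 libraries. Its RPKM rests on an exonic length of 3462 bases, while the transcript NCF1-201 has 1396. CYBB was the lowest of these 6 genes in 8 of 8 libraries, and its highest value, 1.26 RPKM, lay below the lowest value of NCF1, 2.97 RPKM. By mean CPM, CYBA was above 99.6% of all tested genes, RAC2 above 98.4%, NCF4 above 94.5%, NCF1 above 93.0% and CYBB above 44.9%.

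**Figure D1:**
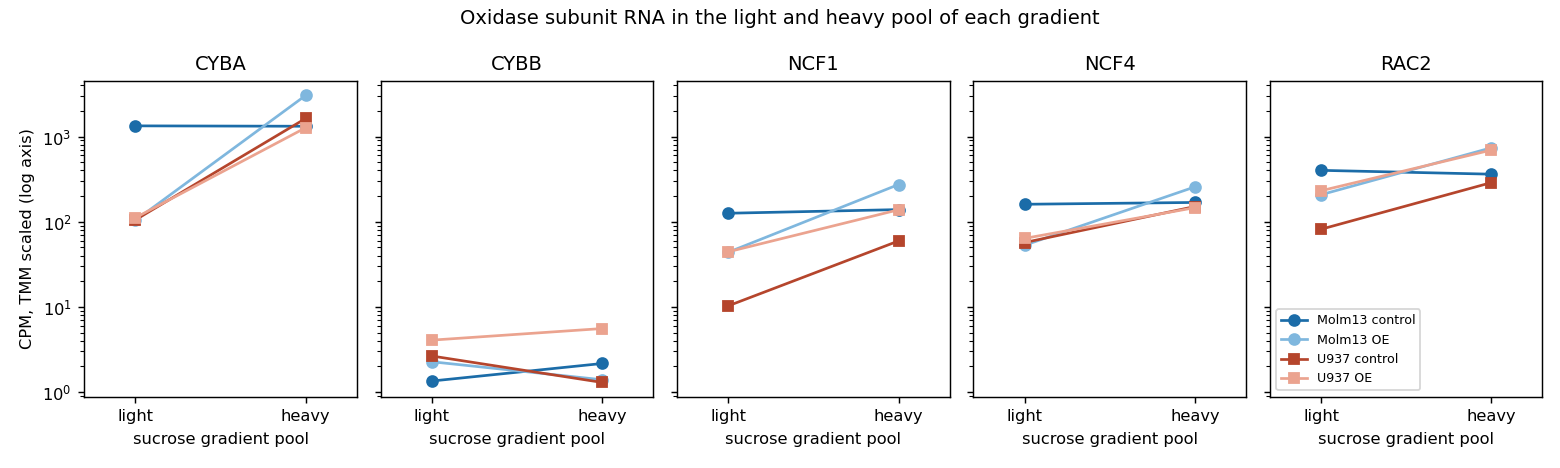
Level of each oxidase subunit gene (CPM, TMM scaled, log axis) in the light and heavy pool, with 1 line per gradient and 1 point per library. CYBA, NCF1, NCF4 and RAC2 rise from light to heavy in 3 gradients and are nearly level in the gradient labelled Molm13 control (dark blue), whose CYBA value is 1337 CPM in the light pool and 1323 CPM in the heavy pool.

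CYBA (chromosome 16, 88643283 to 88651152, - strand) held the widest contrast between pools. Its light pools held 1337 CPM in the library labelled Molm13 control, 103.6 CPM in Molm13 OE, 105.1 CPM in U937 control and 111.4 CPM in U937 OE. Its heavy pools held 1323, 3048, 1634 and 1271 CPM in the same order. All heavy values were high, 3 of the light values were low and close to each other, and the light library labelled Molm13 control lay among the heavy ones. Heavy over light, the ratio was 0.99 in Molm13 control, 29.4 in Molm13 OE, 15.5 in U937 control and 11.4 in U937 OE. In each of the last 3 gradients that ratio was above those of 99.9% of tested genes. On the log2 scale the mean was 3.08 ± 2.14 (SD, n = 4 gradients), and 4.12 ± 0.70 (SD, n = 3) without the gradient labelled Molm13 control.

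CYBB (chromosome X, 37780011 to 37813461, + strand), the catalytic partner of CYBA, did not share this. It held 1.35, 2.27, 2.65 and 4.07 CPM in the light pools of Molm13 control, Molm13 OE, U937 control and U937 OE. In the heavy pools it held 2.16, 1.39, 1.296 and 5.57 CPM, so the pools overlapped and the highest value of each was in U937 OE. These levels rest on 33 to 445 counts per library. The heavy over light ratio was 1.61, 0.615, 0.489 and 1.37 in the order given, above 1 in 2 gradients and below 1 in the others. Its mean log2 difference was -0.15 ± 0.83 (SD, n = 4), and -0.42 ± 0.77 (SD, n = 3) without the Molm13 control gradient.

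Of the cytosolic subunits, NCF1 (chromosome 7, 74773962 to 74789315, + strand) held 125.8, 43.8, 10.3 and 44.3 CPM in the light pools of Molm13 control, Molm13 OE, U937 control and U937 OE. It held 138.9, 273.5, 59.5 and 138.2 CPM in the heavy pools. The heavy pool was the higher in every gradient, by a ratio of 1.1 in Molm13 control and of 6.24, 5.78 and 3.12 in the others. Its mean log2 difference was 1.74 ± 1.15 (SD, n = 4), and 2.27 ± 0.55 (SD, n = 3) without Molm13 control.

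NCF4 (chromosome 22, 36860988 to 36878015, + strand) held 160.4, 53.0, 57.0 and 63.7 CPM in the light pools and 168.5, 256.8, 150.9 and 146.4 CPM in the heavy pools, in the same order of gradients. As for CYBA, 3 light values were low and close together and the light library labelled Molm13 control was as high as the heavy pools. The ratio was 1.05 in Molm13 control and 4.85, 2.65 and 2.3 in the others. Its mean log2 difference was 1.24 ± 0.91 (SD, n = 4), and 1.63 ± 0.57 (SD, n = 3) without Molm13 control. NCF4 shares 27 exonic bases with NCF4-AS1 on the opposite strand, which held 340 to 2508 counts, and the library kit does not mark strand.

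RAC2 (chromosome 22, 37225261 to 37244448, - strand) held 401.5, 207.6, 81.6 and 231.2 CPM in the light pools and 361.9, 739.0, 288.2 and 694.9 CPM in the heavy pools. The pools overlapped across gradients, but within each of 3 gradients the heavy pool was the higher. The ratio was 0.901 in Molm13 control and 3.56, 3.53 and 3.0 in Molm13 OE, U937 control and U937 OE, the narrowest spread of the 5 genes over those 3 gradients. Its mean log2 difference was 1.27 ± 0.95 (SD, n = 4), and 1.75 ± 0.14 (SD, n = 3) without Molm13 control.

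Fitted over all libraries, the heavy minus light difference was 2.84 for CYBA, 1.47 for NCF1, 1.18 for NCF4, 1.14 for RAC2 and 0.02 for CYBB on the log2 scale. No test outcome is given for these genes, because they were selected with this contrast known. Of all tested genes, 28.6% were past the threshold of an adjusted p of 0.05 (15.8% higher and 12.8% lower in the heavy pools).

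**Figure D2:**
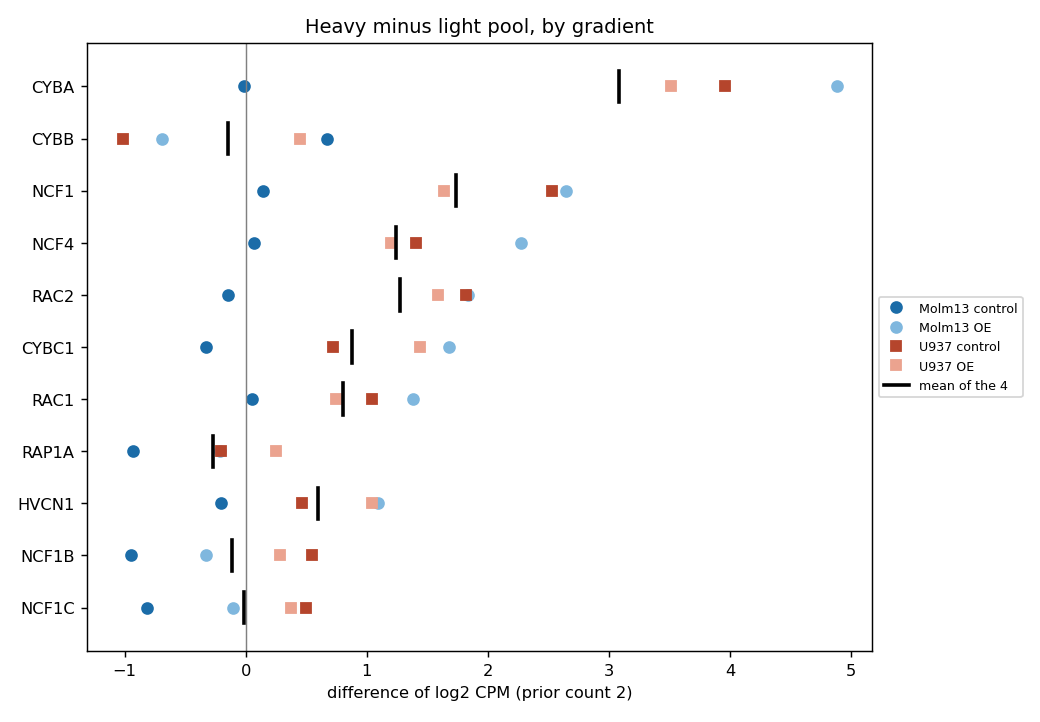
Difference of log2 CPM (prior count of 2), heavy minus light pool, for the 5 subunits, 4 other oxidase components and the NCF1 copies; 1 point per gradient, with the mean of the 4 as a black bar. CYBA reaches 3.51 to 4.88 in 3 gradients and -0.01 in Molm13 control, while CYBB, RAP1A, NCF1B and NCF1C lie on both sides of 0.

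The other components of the oxidase did not enter the rule that chose the 5 genes, and this contrast was tested for them. Their list was nevertheless drawn up with earlier results of these data known. CYBC1, which encodes a chaperone needed for the flavocytochrome, had a heavy minus light difference of 0.86 in log2 units (SE 0.26, adjusted p = 0.0259 by edgeR) and by 1.65 to 3.2-fold in the 3 gradients other than Molm13 control, where the ratio was 0.798. That call was lost with upper quartile scaling (adjusted p = 0.0585), with no line label in the model (adjusted p = 0.0528) and when any of 5 libraries was left out, among them U937 control light (adjusted p = 0.0741) and U937 control heavy (adjusted p = 0.122). RAC1 was 0.80 higher (SE 0.30, adjusted p = 0.0618), and it passed the threshold by DESeq2 (adjusted p = 0.0158), by limma voom (adjusted p = 0.0377) and without the Molm13 control light library, at 1.02 (adjusted p = 0.00349). HVCN1, the voltage-gated proton channel that balances the charge moved by the oxidase, was 0.59 higher (SE 0.26, adjusted p = 0.102), and 0.77 without that library (adjusted p = 0.0223). RAP1A, a small GTPase found with the flavocytochrome, differed by -0.27 (SE 0.24, adjusted p = 0.421). Of these 4 components, 1 passed the test by edgeR, against 28.6% of all genes. CYBC1 shares 57 exonic bases with HEXDC and HVCN1 shares 635 with TCTN1, and reads over those bases cannot be told apart by strand.

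The copies of NCF1 were spread over the pools differently from NCF1. NCF1B held 88.1, 136, 22.8 and 70.7 CPM in the light pools and 45.7, 108, 33.3 and 86.2 CPM in the heavy pools of Molm13 control, Molm13 OE, U937 control and U937 OE. NCF1C held 128, 167, 27.9 and 99.3 CPM in the light pools and 72.8, 156, 39.3 and 129 CPM in the heavy pools. Both copies were lower in the heavy pool of the Molm13 gradients and higher in that of the U937 gradients, and neither difference passed the test over all gradients (-0.13, SE 0.29, adjusted p = 0.767 for NCF1B and -0.05, SE 0.31, adjusted p = 0.923 for NCF1C). NCF1 therefore made up a different share of the counts of the 3 genes in each pool. The share was 36.8% in the light and 54.0% in the heavy pool of Molm13 control, and 12.6% and 50.9% in Molm13 OE. It was 16.9% and 45.0% in U937 control, and 20.7% and 39.1% in U937 OE. In every gradient the heavy pool had the larger share, by 17.2 to 38.3 percentage points, and the exact 95% binomial intervals of a gradient's pools, which cover counting error only, did not overlap. The widest interval, for the light pool of U937 control, was 15.6% to 18.2%. Because NCF1 was chosen with its pool difference known, the shares are a description. With the counts of the copies added to NCF1, the fitted heavy minus light difference fell from 1.47 to 0.45.

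**Figure D3:**
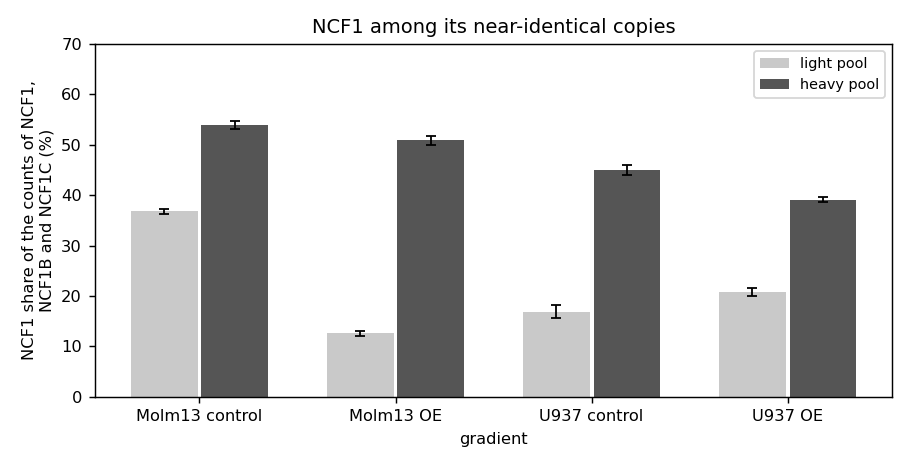
NCF1 as a percentage of the counts of NCF1, NCF1B and NCF1C in the light (grey) and heavy (dark) pool of each gradient; bars start at 0 and error bars are exact 95% binomial intervals. The share lies between 12.6% and 36.8% in the light pools and between 39.1% and 54.0% in the heavy pools.

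Libraries labelled OE were then compared with controls. Over both pools, the fitted OE minus control difference was -0.98 for CYBA (SE 0.53, adjusted p = 0.304), 0.70 for CYBB (SE 0.40, adjusted p = 0.323) and 0.58 for NCF1 (SE 0.45, adjusted p = 0.482) on the log2 scale. It was -0.23 for NCF4 (SE 0.31, adjusted p = 0.71) and 0.63 for RAC2 (SE 0.39, adjusted p = 0.376). By edgeR 0 of the 5 genes passed the threshold, beside 4.37% of all tested genes (2.01% higher, 2.36% lower). For 5 genes, 0 calls are near that share. An unadjusted p below 0.05 by edgeR was reached by 0 of the 5, beside 5384 of the 24289 tested genes. DESeq2 also called 0 of 5, with 2655 genes called in all. The members' median was 0.58, beside -0.05 over all tested genes. In bulk pools such as these, fewer cells expressing a gene and less of its RNA per cell cannot be told apart.

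The matched pairs behind these values did not share a direction for any of the 5 genes. RAC2 differed by -0.95 in the Molm13 light pair, 1.03 in the Molm13 heavy pair, 1.5 in the U937 light pair and 1.27 in the U937 heavy pair. NCF1 differed by -1.52, 0.98, 2.11 and 1.22 in the same order. For both genes the libraries labelled OE were higher in 3 of 4 pairs, the exception being the pair that holds the library labelled Molm13 control light. Without that library RAC2 was higher by 1.26 (adjusted p = 0.000893) and NCF1 by 1.43 (adjusted p = 7.79e-05, both by edgeR) in the libraries labelled OE over both pools, and 2 of the 5 genes were called, in a fit that called 3567 genes in all, beside 1061 with every library. Each library left out in turn gave 0.15 to 1.26 for RAC2 and -0.02 to 1.43 for NCF1, the lowest values coming without the U937 control light library.

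CYBA differed by -3.69 in the Molm13 light pair, 1.20 in the Molm13 heavy pair, 0.08 in the U937 light pair and -0.36 in the U937 heavy pair, so its pairs had no common direction. Its fitted value was 0.19 without the Molm13 control light library, and -1.52 without the U937 control light library (adjusted p = 9.61e-05, with 2460 genes called in all), which was the only setting that called CYBA over both pools. NCF4 differed by -1.60, 0.61, 0.16 and -0.04, again with the lowest value in the Molm13 light pair, and its fitted value without the Molm13 control light library was 0.12. CYBB differed by 0.74, -0.62, 0.61 and 2.07. The largest of these came from the heavy pools of U937, where CYBB held 1.296 CPM in the control and 5.57 CPM in the library labelled OE.

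**Figure D4:**
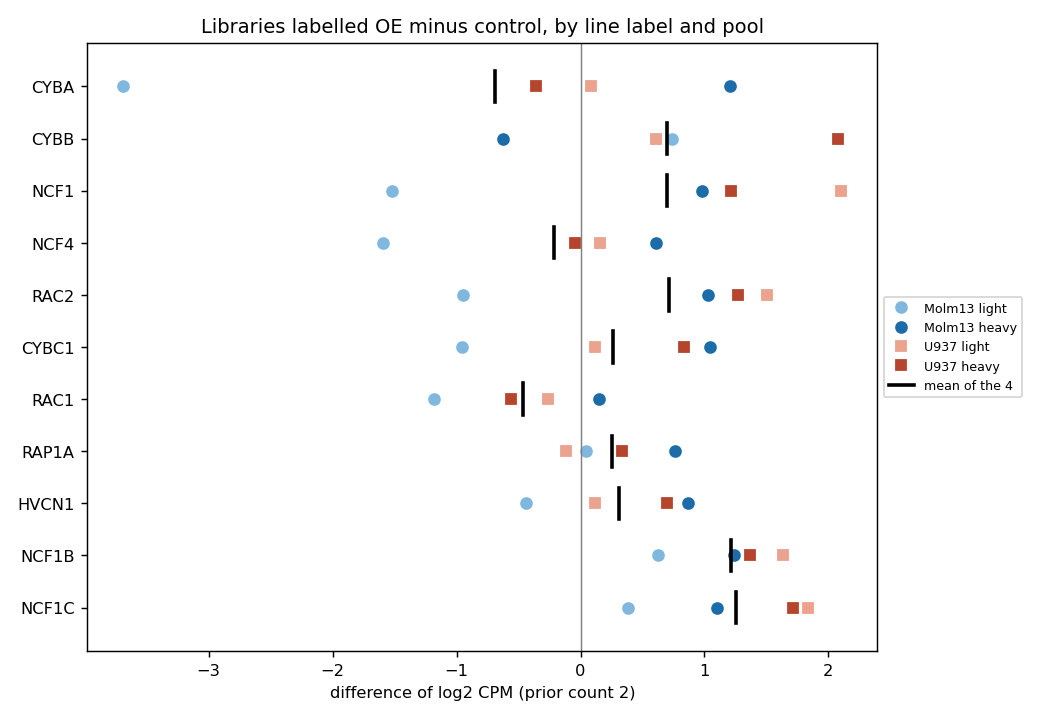
Difference of log2 CPM (prior count of 2), libraries labelled OE minus controls, in the 4 matched pairs of line label and pool, with the mean as a black bar. RAC2 and NCF1 lie between 0.98 and 2.11 in 3 pairs and below 0 in the Molm13 light pair. NCF1B and NCF1C lie above 0 in all 4, as do 11.0% of all tested genes.

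The genotype comparison was also made within each pool. In the heavy pools all 5 genes had a positive difference: 1.17 for RAC2 (SE 0.55, adjusted p = 0.336), 1.11 for NCF1 (SE 0.61, adjusted p = 0.417), 0.72 for CYBB, 0.28 for CYBA and 0.27 for NCF4. None passed the threshold, against 0.00412% of all tested genes (1 gene by edgeR). An unadjusted p below 0.05 by edgeR was reached by 0 of the 5, beside 3670 of the 24289 tested genes. DESeq2 called 0 of the 5, with 994 genes called in all. RAC2 was at 288.2 and 361.9 CPM in the control heavy pools and at 694.9 and 739.0 CPM in those labelled OE. Leaving out either control light library, which changes the estimated spread but not the heavy pools, put RAC2 at an adjusted p of 0.0281 or 0.0292 and NCF1 at 0.0311 or 0.0327, in fits that called 1855 and 1882 genes in all. Markers listed for other cells moved with the same libraries. The summed level of the 6 T and NK cell markers was 147 to 180 CPM in the control heavy pools and 513 to 554 CPM in those labelled OE, carried by NKG7 and CD3D, with CD3E, CD2, CD8A and KLRD1 under 1 CPM. The 5 stromal and endothelial markers summed to 44.7 to 58.9 CPM and 120 to 128 CPM, with CDH5, COL1A1 and COL1A2 under 1 CPM, and the 10 myeloid markers to 904 to 974 CPM and 1140 to 1210 CPM. Their part in the result was not tested.

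In the light pools CYBA differed by -2.23 (SE 0.83, unadjusted p = 0.0184, adjusted p = 0.243 by edgeR), NCF4 by -0.74 (adjusted p = 0.468), CYBB by 0.68 (adjusted p = 0.602), RAC2 by 0.09 (adjusted p = 0.964) and NCF1 by 0.06 (adjusted p = 0.979). None of the 5 passed, as was the case for 0.0% of all tested genes, of which 3604 had an unadjusted p below 0.05 and 930 were called by DESeq2. The CYBA value turned on the control libraries. It was -0.09 without the Molm13 control light library and -3.51 without the U937 control light library (adjusted p = 6.32e-07), and the U937 pair alone gave 0.08. NCF1 was called without the Molm13 control light library, at 1.78 (adjusted p = 0.0111), and NCF4 without the U937 control light library, at -1.35 (adjusted p = 0.0367); these fits called 854 and 1926 genes in all.

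The term for genotype by pool asks whether the heavy minus light difference itself differed between libraries labelled OE and controls. It was 2.51 for CYBA (SE 1.15, unadjusted p = 0.0484, adjusted p = 0.791 by edgeR), 1.08 for RAC2, 1.05 for NCF1, 1.01 for NCF4 and 0.03 for CYBB, and the adjusted p values of the last 4 were 0.792 to 0.997. None of the 5 passed, nor did any other gene (0.0% of all tested; 1431 genes had an unadjusted p below 0.05 and DESeq2 called 6). By gradient, the CYBA heavy minus light difference was -0.01 and 3.96 in the controls and 4.88 and 3.51 in the gradients labelled OE, which overlap. Without the U937 control light library the term was called for CYBA at 3.98 (adjusted p = 3.08e-06), NCF1 at 2.19 (adjusted p = 0.00525) and RAC2 at 1.99 (adjusted p = 0.0182), a fit in which the library labelled Molm13 control light is the only control light pool and which called 1371 genes in all. Without the Molm13 control light library it was -0.70 for NCF1 and -0.24 for RAC2.

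Between the line labels, Molm13 minus U937, NCF1 differed by 1.39 (SE 0.47, unadjusted p = 0.011, adjusted p = 0.329 by edgeR), CYBA by 1.03 (adjusted p = 0.501), RAC2 by 0.60 (adjusted p = 0.564), NCF4 by 0.55 (adjusted p = 0.506) and CYBB by -0.77 (adjusted p = 0.468). None of the 5 passed, and 0.0% of all tested genes did, with 2862 genes at an unadjusted p below 0.05 and 303 called by DESeq2. DESeq2 called NCF1 among the 5 (1.40, adjusted p = 0.0425). The matched pairs of NCF1 ran from -0.02 in OE light to 3.61 in control light, so the pair with the library labelled Molm13 control light held the largest difference. The genotype difference was also compared between line labels. This term, Molm13 minus U937, was -1.93 for NCF1 (SE 0.75, unadjusted p = 0.0185, adjusted p = 0.676), -1.35 for RAC2, -1.27 for CYBB, -1.10 for CYBA and -0.55 for NCF4. None of the 5 passed, against 0.132% of all tested genes (32 by edgeR and 88 by DESeq2), and each genotype is 1 gradient per line label. With either control light library left out the term was 0.87 to 0.88 for CYBA and 0.11 for NCF4. With either control heavy library left out it was called for NCF1 (-3.15 and -3.14), CYBA (-3.11 and -3.10) and RAC2 (-2.36 and -2.34), in fits that called 864 and 831 genes in all.

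NCF1B and NCF1C, unlike NCF1, passed the genotype test over both pools. NCF1B was 1.18 higher in the libraries labelled OE (SE 0.29, adjusted p = 0.0427 by edgeR) and NCF1C 1.22 higher (SE 0.32, adjusted p = 0.0479), in 4 of 4 pairs each. Of all tested genes, 11.0% were higher in all 4 pairs and 14.4% were lower in all 4. The copies are near-identical and may share reads, so these are not 2 independent results. The pairs ran from 0.62 to 1.63 for NCF1B and from 0.38 to 1.83 for NCF1C, with the lowest in the Molm13 light pair. Both calls were lost under 8 of 16 alternatives, with adjusted p values up to 0.286 and 0.298 without the U937 OE heavy library. A second Ensembl ID carrying the NCF1B symbol held 100.3% to 101.0% as many counts, so reads there were counted for both IDs.

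Genes around the oxidase were read from lists drawn up with earlier results of these data known. Among 10 tested receptors that trigger it, 3 were higher in the libraries labelled OE over both pools and 0 lower, against 2.01% higher and 2.36% lower over all tested genes; the list's median was 0.85, beside -0.05 over all genes. ITGAM, the alpha chain of complement receptor 3, held 13.7 and 6.21 CPM in the control heavy pools and 37.3 and 38.4 CPM in those labelled OE. In the light pools it held 22.6 and 13.9 CPM in controls and 53.8 and 50.3 CPM in those labelled OE. Fitted over both pools, ITGAM was 1.79 higher on the log2 scale (SE 0.26, adjusted p = 0.0116 by edgeR). FCGR2A, an activating receptor for IgG, was 1.01 higher (SE 0.22, adjusted p = 0.0295), with 20.8 to 29.5 CPM in controls and 41.2 to 60.4 CPM in libraries labelled OE. FCGR2B, the inhibitory receptor for IgG, was 2.96 higher (SE 0.69, adjusted p = 0.0339). For U937 its light pools held 0.56 CPM (control) and 15.1 CPM (OE) and its heavy pools 0.851 CPM (control) and 37.6 CPM (OE). For Molm13 the light pools held 20.0 CPM (control) and 16.7 CPM (OE), which ran the other way, and the heavy pools 6.56 CPM (control) and 45.0 CPM (OE). Each library left out in turn gave 2.02 (without U937 control light) to 4.11 (without Molm13 control light) for FCGR2B. MPO, which turns hydrogen peroxide into hypochlorous acid, fell by 1.01 (SE 0.24, adjusted p = 0.0358), the only call among 14 genes of oxidant handling. ARHGDIA, which holds Rac and related GTPases in the cytosol, fell by 1.04 (SE 0.25, adjusted p = 0.0399), the only call among 20 tested regulators and effectors of Rac. Of 20 kinases and lipases that activate the oxidase and 15 transcription factors of its genes, 0 passed by edgeR. All 5 of these named calls were lost when each gradient was summed over its pools, which leaves 1 residual degree of freedom (adjusted p = 0.102 to 0.198). The call of ITGAM was also lost without the U937 OE heavy library (adjusted p = 0.065), that of FCGR2B without that library or U937 control heavy, and those of FCGR2A, MPO and ARHGDIA without any 1 of the 6 libraries other than the control light pools. With no line label in the model FCGR2A (adjusted p = 0.0605), FCGR2B (2.05, adjusted p = 0.198), MPO (adjusted p = 0.278) and ARHGDIA (adjusted p = 0.0689) were not called.

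The heavy against light contrast called 15.8% of all tested genes as higher and 12.8% as lower in the heavy pools, and the counts of these lists are read against those shares. Heavy pools were the higher for 8 of the 20 Rac regulators and effectors and the lower for 2 of them; the list's median was 0.63, beside -0.04 over all tested genes. ARHGDIA was 1.70 higher (SE 0.26, adjusted p = 0.00102), its blood cell paralogue ARHGDIB 1.48 (SE 0.35, adjusted p = 0.00841) and DOCK2, an exchange factor that loads RAC2, 1.06 (SE 0.24, adjusted p = 0.00626). Of 14 genes of oxidant handling 8 were higher and 2 lower, with a median of 0.98. PRDX1, a peroxiredoxin, was 2.09 higher (SE 0.35, adjusted p = 0.00152) and SOD1, which dismutes superoxide, 1.95 higher (SE 0.34, adjusted p = 0.00188). GPX4, which reduces lipid peroxides, differed by -2.06 (SE 0.31, adjusted p = 0.000957). Of the 15 transcription factors 4 were higher and 0 lower: SPI1 (PU.1, which drives CYBB transcription) by 1.32, IRF8 by 1.10, ELF1 by 0.73 and NFKB1 by 0.72. Of the 20 kinases and lipases 3 were higher and 0 lower, PRKCD, PIK3CD and PIK3R5, by 0.67 to 1.11, which is near the share over all genes. With upper quartile scaling the calls of ELF1 (adjusted p = 0.082), NFKB1 (0.0995) and PIK3R5 (0.119) were lost. Among 10 tested receptors, FCGR1A (1.25, adjusted p = 0.0106) and ITGB2 (1.22, adjusted p = 0.0289), the beta chain of complement receptor 3, were higher, again near that share. Of the genes named for this contrast, ARHGDIA, PRDX1, SOD1 and GPX4 kept their calls with each library left out in turn, and each of the others lost its call without at least 1 library, for example SPI1 (adjusted p = 0.0613) and ITGB2 (adjusted p = 0.123) without U937 OE heavy.

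The pattern of each subunit over the 8 libraries was compared with that of other genes at a mean of at least 10 CPM, by Pearson's r of log2 CPM; all libraries, pools and depths are shared, so r is a description. CYBA ran most closely with CYC1 (r = 0.998), CBR1 (0.997) and CHMP2A (0.996), and RAC2 with ITGB2 (0.999), S100A10 (0.992) and HCST (0.992). NCF4 ran with NUBP1 (0.997), PPP1R35 (0.996) and PPP1R7 (0.995), NCF1 with LMNA (0.995), ENO1-AS1 (0.993) and KCNN4 (0.989), and CYBB with TNFRSF10D (0.981), SPART (0.978) and WDR37 (0.95). Among the members, r was 0.988 between CYBA and NCF4 and 0.965 between NCF1 and RAC2, and it was between -0.44 and -0.07 for CYBB with each of the others.

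Coding length differs among the subunits and was set beside the contrast between pools. Over 13615 tested genes with a coding sequence, the median heavy minus light difference was 0.18 at up to 100 codons, 0.34 at over 100 and up to 200 codons, 0.29 at over 200 and up to 400, 0.08 at over 400 and up to 800, and 0.05 above that. The coding sequence is 576 bases for RAC2, 630 for CYBA, 1044 for NCF4, 1170 for NCF1 and 1710 for CYBB, the longest of the 5. Among the other components with a coding sequence close to that of RAC2 or CYBA, the values went both ways. RAP1A (552 bases) differed by -0.27, CYBC1 (570 bases) by 0.86 and RAC1 (633 bases) by 0.80. The part of coding length in the members' values was not tested.

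**Figure D5:**
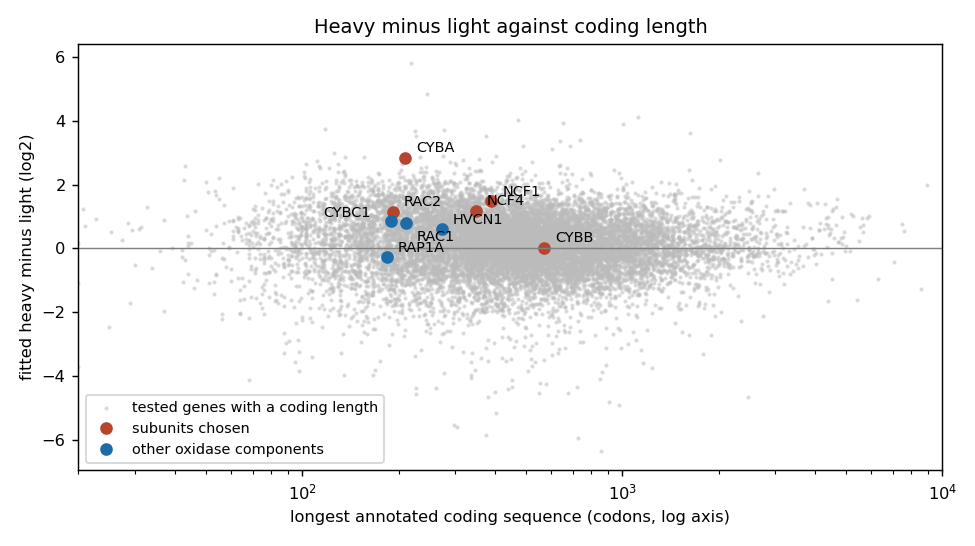
Fitted heavy minus light difference (log2) against the longest annotated coding sequence (codons, log axis) for 13615 tested genes (grey), the 5 subunits (red) and 4 other oxidase components (blue). CYBA, whose value was used to choose the set, lies at 2.84 and CYBB at 0.02.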

How the data were processed

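RNA of pooled sucrose gradient fractions was sequenced in 8 libraries, prepared by Smart-seq and so unstranded. Raw counts, whole reads per Ensembl gene, were deposited by the authors as 1 table. The submitters' processing notes name featureCounts, STAR, cutadapt and GRCh38; tool versions, annotation and the handling of shared reads are not given in these sources. Symbols were found for 61481 of 78932 IDs and GENCODE 29 positions for 57356. Genes were tested with edgeR 4.0.16 (R 4.3.3), quasi-likelihood, TMM scaling, filterByExpr (24289 genes kept) and group and line label as model terms, with 3 residual degrees of freedom; the line by genotype term was fitted in a model with 2. The threshold was a Benjamini-Hochberg adjusted p of 0.05 over all tested genes. The biological coefficient of variation was 0.359. CPM and RPKM were computed here, on exonic lengths of GENCODE 29; SE is derived from the quasi-likelihood F statistic. The fits were tested on simulated data.

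Alternatives were DESeq2 1.42.0, limma 3.58.1 (voom, with and without the gradient as a random block), other scalings, no filter, no line label, gradients summed over pools, NCF1 summed with its copies, and each library left out. The members and gene lists were chosen with earlier results of these data known. Named were the 5 subunits, the 4 other components, the NCF1 copies, up to 4 genes per list by smallest p, and the 3 genes most like each subunit at a mean of at least 10 CPM. Some listed genes are not reported here. No protein sequence is printed.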

Additional observations from a re-analysis of the deposited data

How the results depend on the processing

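Of 451 values of the 5 subunits under the alternatives, with heavy against light left out, 403 kept their direction and their side of the threshold. Of the rest, 22 moved past it and 26 changed direction. None could fall back from it, because 0 of the 5 were called in these comparisons. The heavy minus light difference of CYBA, the value that chose the set, was between 2.29 and 4.00 under the alternatives. That range is a description, and the gradient labelled Molm13 control alone gave -0.01. The count of the 5 genes called, 0 for each genotype and line comparison by edgeR, was 1 in the light pools with no filter on low counts (CYBA), and 1 between the line labels with DESeq2 and also with no filter (NCF1 both times). With each library left out it ran from 0 to 2 for the genotype over both pools, 0 to 2 in the heavy pools, 0 to 2 in the light pools, 0 to 3 for genotype by pool and 0 to 3 for line by genotype; the cause was not tested. With no replicate block, that is without the line label in the model, the light pool difference was -0.63 for NCF1 and -0.14 for RAC2, in place of 0.06 and 0.09. The pairing rests on the line labels as given. The genotype by pool term of CYBB, 0.03, was -0.053 with DESeq2, -0.042 with RLE scaling, -0.076 with no filter and -0.15 with upper quartile scaling. The heavy minus light difference of NCF1C was 0.01 with limma voom (0.0064) and 0.0022 with the gradient as a random block. With libraries left out, these ranges crossed 0. Over both pools they were -1.52 to 0.19 for CYBA, -0.54 to 0.12 for NCF4 and -0.023 to 1.43 for NCF1. In the heavy pools they were -0.27 to 1.80 for CYBB and -0.51 to 1.28 for CYBA, and in the light pools -1.12 to 1.78 for NCF1 and -0.85 to 1.39 for RAC2. For genotype by pool they were -0.99 to 1.12 for CYBB, -0.70 to 2.19 for NCF1, -0.24 to 1.99 for RAC2, -0.52 to 0.88 for NCF1B and -0.48 to 1.10 for NCF1C. For line by genotype they were -3.11 to 0.88 for CYBA, -1.24 to 0.11 for NCF4 and -1.34 to 0.17 for NCF1B. For heavy minus light they were -0.45 to 0.25 for NCF1B and -0.39 to 0.41 for NCF1C. Over all genes, the number called over both pools, 1061, ran from 0 (gradients summed) to 3567 (without the Molm13 control light library), and for heavy against light, 6937, from 3801 to 9502. It ran from 0 to 1882 in the heavy pools (1 as reported), 0 to 1926 in the light pools, 0 to 1371 for genotype by pool, 0 to 412 between the line labels (each 0 as reported) and 23 to 864 for line by genotype (32 as reported). There were 2 libraries per group, and CYBB held 33 counts in the shallowest library. How small a difference could be detected, and the part of depth in this, was not tested.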

Other observations

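Of the 10 genes of the other NADPH oxidases, 4 passed the filter on low counts, NOX1, NOXO1, NOX5 and NOXA1, and 0 were called in any comparison by edgeR. Over both pools, libraries labelled OE minus controls, NOXO1, the organiser that takes the place of NCF1 in the NOX1 complex, differed by -1.34 (SE 0.49, unadjusted p = 0.0171, adjusted p = 0.128) and NOX1 by -1.27 (SE 0.60, adjusted p = 0.238). NOXA1, the activator of that complex, differed by 0.78 (SE 0.37, adjusted p = 0.24) and NOX5, which needs no cytosolic subunit, by 2.51 (SE 1.10, unadjusted p = 0.0405, adjusted p = 0.202). NOX5, NOX1 and NOXO1 lay near the floor. NOX5 held at most 0.814 CPM, with 1 and 0 counts in the light and heavy U937 control libraries. NOX1 fell to 4 counts in Molm13 OE heavy and NOXO1 to 5 in Molm13 OE light. In the Molm13 light pair, control then OE, NOX5 (0.254 and 0.166 CPM) and NOX1 (0.382 and 1.39 CPM) ran the other way. PRKCA, a kinase that phosphorylates p47phox, differed by -1.14 (SE 0.31, adjusted p = 0.0559), and GATA2 by 0.96 (SE 0.30, adjusted p = 0.0837). CEBPE, a factor of late granulocyte differentiation, differed by 1.13 (SE 0.40, adjusted p = 0.118). All of these values use the library labelled Molm13 control light. TIAM1, FPR2, CLEC7A and CSF2RA did not pass the filter.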
